A study of Arabidopsis thaliana with 128 samples.

Results

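The decline of transcripts during a block of transcription was compared between vcs and WT seedlings of Arabidopsis thaliana. The comparison used every library of these genotypes taken at 0, 7.5, 15, 30, 60 and 120 min after infiltration with 1 mM cordycepin, an adenosine analogue that stops RNA synthesis, which gave 48 of the 128 libraries of the series. Whole seedlings were 5 d old, had grown in constant light, and were treated and extracted as pools, so levels are averages over all organs. The vcs seedlings carried the vcs-7 mutation in the mRNA decapping scaffold VARICOSE together with a SOV transgene from Landsberg erecta. The WT seedlings were Col-0 with the same Landsberg erecta SOV transgene and an intact VCS, so both genotypes had the exoribonuclease SOV from that accession. Each genotype was sampled in 4 biological replicates, so that a course is the 6 times of 1 replicate. Another 24 libraries of sov seedlings (Col-0 without the transgene) at the same times served to sort genes by half-life. In alternatives to the main fit they also served to choose reference genes and entered a fit of all genotypes of the series. The labels record a correction for exchanged tubes at 60 min of vcs replicate 3.

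In plants as in other eukaryotes, most cytoplasmic mRNAs lose their poly(A) tail, then their cap, and are then digested from the 5' end. VCS is the plant counterpart of the scaffold that holds the decapping enzyme DCP2 and its activator DCP1 together. SOV is a DIS3L2-type exoribonuclease that works from the 3' end, and Col-0 is known as an accession in which it is compromised. When transcription stops, the level of an mRNA falls at a pace set by its decay, so the slope of its log2 level on time measures stability. A slope of -1 log2 unit per h is a half-life of 60 min. A transcript that keeps being made, or that rises despite the inhibitor, has a slope that is not a decay rate. The comparison asks how the loss of VCS alters decay where SOV works.

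Library depth, recovered from the deposited values, ranged from 11.5 to 34.3 M reads over the 48 libraries (median 19.6 M). Levels are in RPM, reads scaled to the total of each library, and depending on the library 0.0875 to 0.261 RPM stand for 3 reads, a floor that covers counting error only. One slope was fitted per gene and course after each library had been scaled to 50 reference genes with the least decline, and 15778 genes of at least 2 RPM at 0 min in both genotypes were tested. At 0 min nuclear genes supplied 63.2% ± 1.32 of the reads in vcs and 49.1% ± 1.80 in WT (SD, n = 4), nearly all other reads being from plastid genes. The unscaled slopes of the reference genes had a median of 0.22 log2 units per h in vcs and 0.26 in WT. By slope over 0 to 120 min, levels were thus scaled down a little less in vcs. This did not hold at early times. At 15 min the log2 scaling was 0.29, 0.09, 0.21 and 0.16 in the vcs courses and 0.13, 0.16, 0.12 and 0.08 in the WT courses. At 120 min it was 0.53, 0.47, 0.67 and 0.48 in vcs and 0.54, 0.56, 0.55 and 0.57 in WT. Mesophyll markers summed to 19695 to 25176 RPM in vcs and 16626 to 19423 RPM in WT, and markers of both shoot and root cell types were detected in both genotypes. Summed xylem markers stood at 131 to 148 RPM in vcs and 74.1 to 80.3 RPM in WT. Phloem markers stood at 88.9 to 97.5 RPM in vcs and 59.7 to 74.2 RPM in WT. Stomatal lineage markers stood at 22.0 to 27.7 RPM in vcs and 13.7 to 18.1 RPM in WT. On this scale these sums did not overlap between genotypes, whereas those of root hair markers did. These RPM include the plastid reads, so the larger nuclear share in vcs raises nuclear markers there. Overlap per nuclear read was not examined. Single markers within the sums differed. SUC2 of the phloem had 66.9 RPM in vcs and 42.6 in WT, but SEOR1 had 15.9 in vcs and 17.2 in WT. TMM of the stomatal lineage had 12.3 RPM in vcs and 5.08 in WT, but FAMA had 6.84 in vcs and 6.83 in WT. Of the mesophyll markers, RBCS1A had 14118 RPM in vcs and 9758 in WT, but RCA had 2128 in vcs and 2785 in WT. Each xylem marker was higher in vcs. The part of these markers in the results was not tested. In bulk RNA of seedlings, fewer cells of a type and less RNA per cell cannot be told apart.

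The labels were checked on VCS itself (AT3G13300). At 0 min VCS stood at 4.42, 4.36, 4.19 and 4.98 RPM in the 4 vcs libraries, against 79.7, 60.8, 59.5 and 64.9 RPM in the 4 WT libraries. The remaining VCS transcript also declined faster, with a slope of -0.63 ± 0.20 log2 units per h in vcs against -0.06 ± 0.03 in WT (SD, n = 4), a difference of -0.57 (SE 0.08, limma adjusted p = 1.16e-04). The half-lives that go with these slopes are 95.7 min in vcs and 987 min in WT. VCR (AT3G13290), the neighbouring gene of like sequence, had a slope of -0.25 ± 0.05 in vcs and -0.17 ± 0.05 in WT, a difference that did not pass (limma adjusted p = 0.270). VCS and VCR are close copies, and reads shared between them could have been counted for either. SOV (AT1G77680) stood at 516 RPM in vcs and 98.5 RPM in WT at 0 min, 5.24-fold higher in vcs on RPM that include the plastid reads. In the authors' deposited DESeq2 results its log2 fold change was 1.83. The half-lives of SOV, 69.8 min in vcs and 75.6 min in WT, did not differ beyond the replicate spread (difference -0.07, SE 0.05, limma adjusted p = 0.383).

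In vcs many transcripts declined more slowly than in WT and fewer declined faster. Of the 15778 genes, 3123 declined more slowly in vcs and 905 declined faster (limma, Benjamini-Hochberg adjusted p under 0.05), that is 25.5% of genes called, with 19.8% slower and 5.74% faster. Slower genes thus made up 77.5% of the calls. Without the 60 min library of vcs replicate 3, whose tube had been exchanged, 3200 genes were slower and 872 faster. Most changes were modest: the median difference was 0.27 log2 units per h among slower genes and -0.28 among faster ones. A difference of at least 0.5 was reached by 272 slower and 67 faster genes, and one of at least 1 by 7 slower and 4 faster genes. Without regard to any model, all 4 vcs slopes lay above all 4 WT slopes for 3133 genes (19.9%) and below them for 980 (6.21%). At the threshold, the last gene called had an adjusted p of 0.04998 and a difference of 0.23, and the first not called an adjusted p of 0.0502 and a difference of 0.20.

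**Figure D1:**
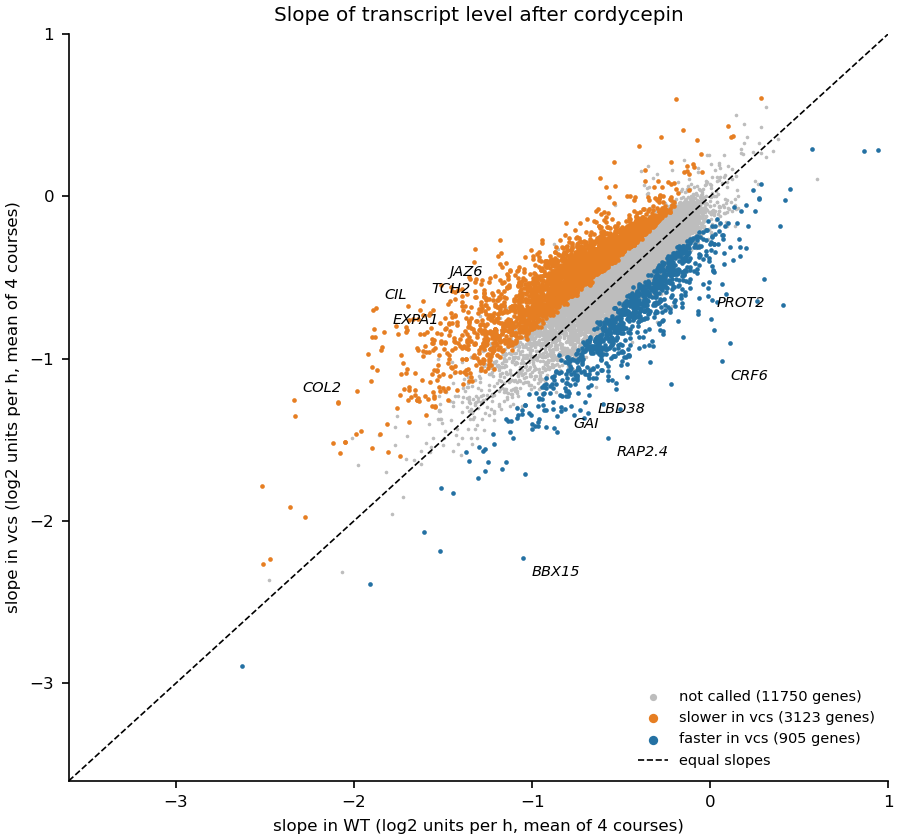
Slope of the log2 level on time over 0 to 120 min in vcs (vertical axis) against that in WT (horizontal axis), each the mean of 4 courses, for the 15778 genes tested. Points above the dashed line declined more slowly in vcs; the 3123 slower genes spread widest where WT slopes are steep, while the 905 faster genes lie below the line over most of its length.

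The typical transcript moved little. The median slope was -0.36, -0.42, -0.45 and -0.41 log2 units per h in the vcs courses of replicates 1 to 4, against -0.43, -0.47, -0.50 and -0.47 in the WT courses. The courses overlapped, since vcs replicate 3 declined more steeply than WT replicate 1. The means of -0.41 ± 0.036 in vcs and -0.47 ± 0.026 in WT (SD, n = 4) correspond to half-lives of 146 min in vcs and 128 min in WT. A two-sided exact permutation test of these medians gave p = 0.0571, where 0.0286 is the smallest p that 4 against 4 allow. The short-lived end of the transcriptome shrank more clearly: 3.40% to 5.14% of genes had a half-life under 60 min in the vcs courses, and 5.86% to 8.67% in the WT courses, with no overlap.

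How many genes lie on each side depends on where the middle is set. With each course centred on its median nuclear gene, 2114 genes were slower and 1872 faster in vcs, so that 53.0% of calls were slower in place of 77.5%. Half-lives above and below, and directions below, are relative to the reference genes. Lists whose direction turned under another scaling are named as such.

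In log2 units per h, the change per gene was larger in short-lived transcripts. Genes were sorted by half-life in sov, which shares no library with this comparison. On this scale the difference in slope shrank step by step from short-lived to long-lived transcripts. The same relative change in slope gives a smaller difference where slopes are shallow, and relative changes were not compared. In the 16 genes with a sov half-life under 30 min, the median slope was -1.72 ± 0.09 in vcs and -2.26 ± 0.12 in WT (SD, n = 4), and 13 of the 16 were slower and 1 faster. In the 1296 genes of 30 to 60 min it was -0.87 ± 0.04 in vcs and -1.13 ± 0.04 in WT, and 57.3% of them were slower and 4.09% faster. Both shares of slower genes lie above the 19.8% among all tested genes, although by number most slower calls, 1875 of 3123, fell in the larger class of 60 to 120 min.

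At longer half-lives the genotypes converged. Among 6526 genes of 60 to 120 min the median slope was -0.54 in vcs and -0.64 in WT, with 28.7% slower and 5.42% faster. Among 5195 genes of 120 to 240 min it was -0.32 in vcs and -0.35 in WT, with 8.24% slower and 5.18% faster. On unscaled RPM the medians of this class were -0.097 in vcs and -0.101 in WT, so long half-lives depend strongly on the scaling. The 2745 genes of over 240 min, or without decline, had a median of -0.17 in both genotypes, and faster calls outnumbered slower ones there, at 8.31% against 2.33%. The sign of the small difference in this last class turned from 0.0023 to -0.03 on unscaled RPM.

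**Figure D2:**
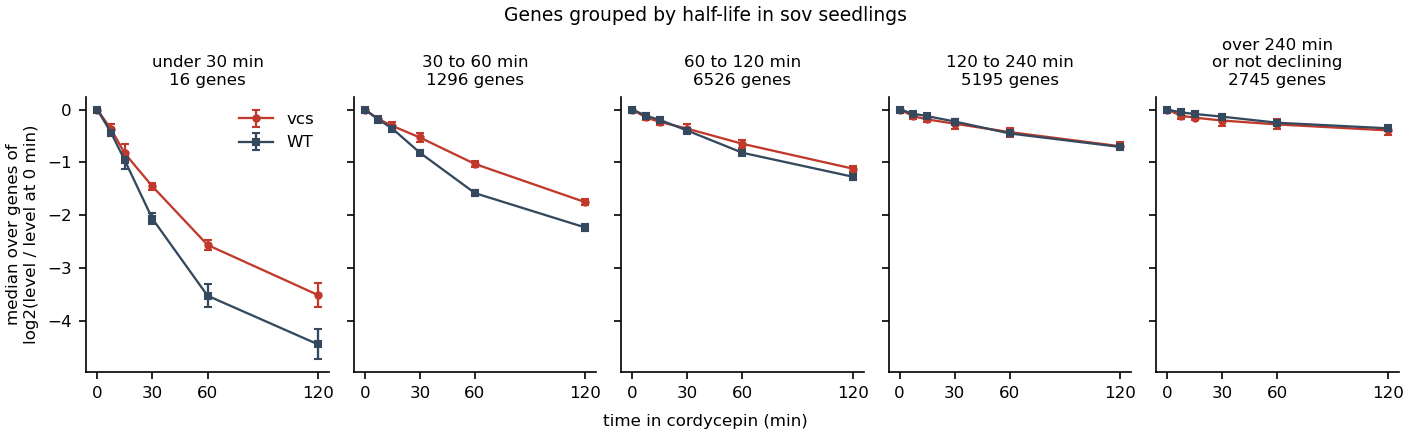
Median over genes of the log2 level relative to 0 min (vertical axis) against time in cordycepin in min (horizontal axis), for vcs and WT, with genes grouped by their half-life in sov seedlings. Points are means of 4 courses and bars their SD. The vcs curve lies above the WT curve in the 2 short-lived classes and close to it in the 2 long-lived ones. In the class of 60 to 120 min it lies below the WT curve at 7.5 and 15 min and above it from 30 min on (46.0% left in vcs and 41.4% in WT at 120 min).

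The gap opened early in the short-lived classes. In the class of 30 to 60 min, the slope over 0 to 30 min was -1.05 ± 0.17 in vcs and -1.63 ± 0.13 in WT, a difference of 0.58. Over 30 to 120 min it was -0.80 ± 0.07 in vcs and -0.89 ± 0.05 in WT, a difference of 0.09. The same held under 30 min, where the difference was 1.26 over the first 30 min and 0.10 afterwards. The levels themselves parted further up to 60 min. In the class of 30 to 60 min, the median log2 level relative to 0 min was -0.53 in vcs and -0.82 in WT at 30 min. It was -1.03 in vcs and -1.58 in WT at 60 min, and -1.76 in vcs and -2.23 in WT at 120 min. The slope over 30 to 120 min thus averages a further parting up to 60 min and a narrowing after it.

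The 12 genes with the largest slowing, out of those called, given a symbol and starting at 5 RPM or more in both genotypes, were CIL, JAZ8, COL2, TCP11, JAZ7, HYR1, HSPRO2, EXPA1, BT1, HTB2, JAZ6 and TCH2. Since they were picked for their difference, their values are descriptions. Their half-lives lay between 44.4 and 110 min in vcs and between 25.7 and 39.7 min in WT. A slowing this large needs a steep decline in WT unless the level rises in vcs. Short half-lives in WT thus come with the choice of these genes.

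CIL (AT4G25990), a CCT-domain gene related to the chloroplast import regulator CIA2, had the largest difference with the pseudocount of 0.5 RPM, just ahead of JAZ8, which exceeded it with 0.1 RPM. Its slopes were -0.57, -0.70, -0.67 and -0.81 log2 units per h in the vcs courses and -1.75, -1.75, -2.08 and -1.92 in the WT courses. The difference was 1.19 (SE 0.07, limma adjusted p = 2.34e-08), and the half-lives were 87.5 min in vcs and 32.0 min in WT. At 120 min 36.8% ± 5.41 of the starting level remained in vcs and 4.87% ± 0.859 in WT (SD, n = 4). CIL was also more abundant at the start, at 47.3, 42.8, 58.5 and 33.9 RPM in vcs against 15.3, 12.4, 15.1 and 15.1 RPM in WT. Its slower decline thus went with a 3.15-fold higher level on RPM that include the plastid reads. In the authors' deposited DESeq2 results its log2 fold change was 1.08.

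COL2 (AT3G02380), a CONSTANS-like B-box gene, combined slower decline with a lower starting level. It stood at 8.78, 5.11, 8.48 and 3.68 RPM in vcs and 35.2, 24.6, 33.6 and 36.9 RPM in WT at 0 min. Its slope was -1.26 ± 0.05 in vcs and -2.34 ± 0.13 in WT (SD, n = 4), with half-lives of 47.7 min in vcs and 25.7 min in WT. The slopes differed mostly over 0 to 30 min, at -1.34 ± 0.69 in vcs and -4.51 ± 0.42 in WT. Fitted over 30 to 120 min, they were -1.23 in vcs and -1.28 in WT. By 60 min 37.3% remained in vcs and 4.72% in WT. TCP11 (AT5G08330), known in the clock as CHE, a repressor of CCA1, started at 0.938-fold in vcs over WT on RPM that include the plastid reads, while the authors' deposited table of DESeq2 results has it lower in vcs, with a log2 fold change of -0.61 (adjusted p = 3.99e-05). It had slopes of -0.82 ± 0.06 in vcs and -1.89 ± 0.14 in WT. Among these genes slower decline was thus seen with both higher and lower starting levels.

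HYR1 (AT3G21760), a glycosyltransferase gene, had 52.0 ± 8.12 RPM in vcs and 14.1 ± 3.36 RPM in WT at 0 min, and half-lives of 88.7 min in vcs and 35.4 min in WT. HSPRO2 (AT2G40000), related to a nematode resistance gene of sugar beet, had half-lives of 69.2 min in vcs and 31.8 min in WT. Its starting level varied widely, from 112 to 316 RPM in vcs and from 85.3 to 185 RPM in WT. The slopes of both genes nonetheless did not overlap between genotypes.

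**Figure D3:**
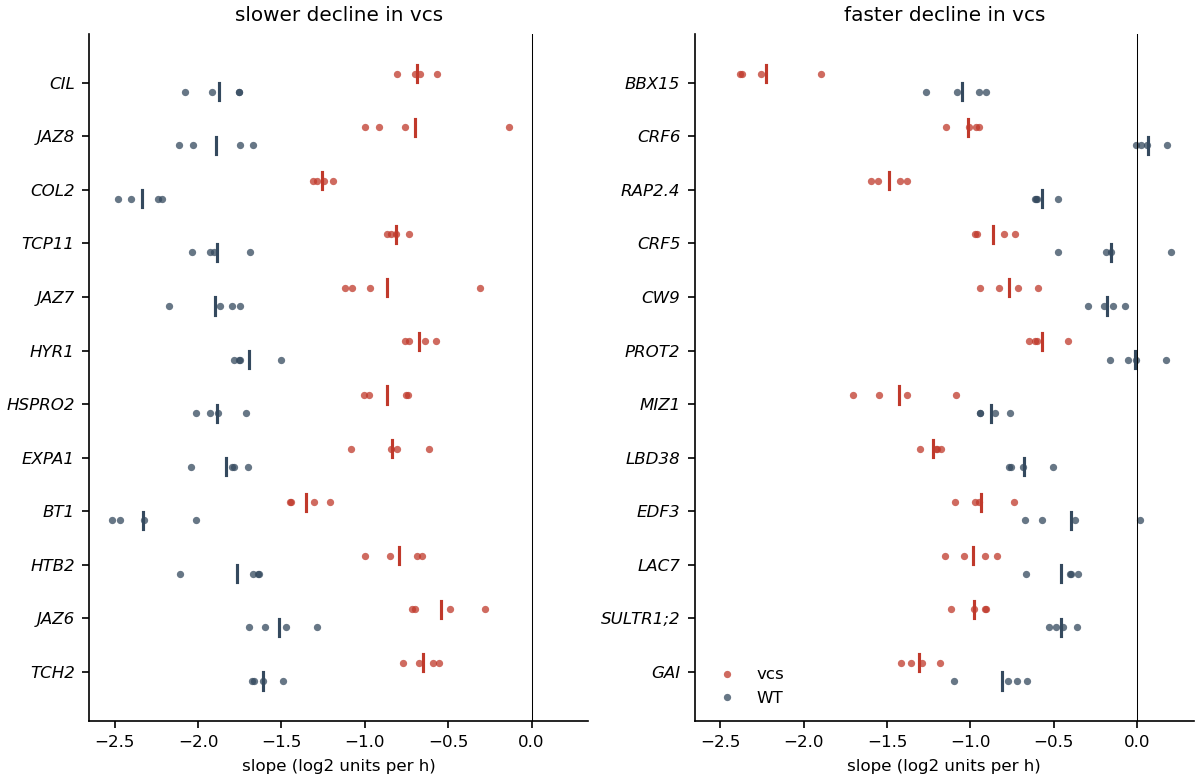
Slope of each course (points) and mean of 4 (bar) in log2 units per h, vcs above WT, for the 12 called genes with the largest slowing (left) and the 12 with the largest hastening (right) in vcs. No gene has overlapping vcs and WT slopes; JAZ7 and JAZ8 each have 1 vcs course, replicate 2, that lies far to the right of the other 3.

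The 12 genes with the largest hastening were BBX15, CRF6, RAP2.4, CRF5, CW9, PROT2, MIZ1, LBD38, EDF3, LAC7, SULTR1;2 and GAI. They were again picked for their difference. On RPM at 0 min 11 of the 12 stood 1.71-fold to 12.1-fold higher in vcs, the exception being LAC7, a laccase gene, at 0.927-fold. On the same scale the median uncalled nuclear gene was itself 0.46 log2 units higher in vcs, and in the authors' deposited table of DESeq2 results CW9 (adjusted p = 0.160) and EDF3 (adjusted p = 0.0704) were not called.

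BBX15 (AT1G25440), a B-box zinc finger gene, had slopes of -1.90, -2.38, -2.37 and -2.26 log2 units per h in the vcs courses and -1.08, -0.91, -1.26 and -0.95 in the WT courses, a difference of -1.18 (SE 0.12, limma adjusted p = 2.20e-04). The early decline did not differ that way, with slopes over 0 to 30 min of -3.18 ± 0.25 in vcs and -3.95 ± 0.54 in WT. The difference came from the later course, with -1.87 ± 0.28 in vcs and -0.25 ± 0.23 in WT over 30 to 120 min (SD, n = 4). In WT the level flattened at 19.2% of the start at 60 min and 18.1% at 120 min, while in vcs it went on down to 12.6% and 3.80%.

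CRF6 (AT3G61630), a cytokinin response factor of the AP2/ERF family, turned upwards in WT. Its level at 60 min was 35.9% ± 6.29 of the start in vcs and 32.3% ± 4.43 in WT, and at 120 min it was 22.5% ± 3.00 in vcs and 98.9% ± 25.7 in WT (SD, n = 4). The slopes of -1.02 ± 0.09 in vcs and 0.07 ± 0.08 in WT therefore compare a decline with a fall and return, and no half-life can be given for WT. CRF5 (AT2G46310), a close relative, fell over 0 to 30 min at -1.71 ± 0.36 in vcs and -3.30 ± 0.44 in WT, and over 30 to 120 min had -0.54 ± 0.15 in vcs and 0.78 ± 0.24 in WT. Both genes were higher at the start in vcs, on RPM CRF6 by 4.84-fold and CRF5 by 2.82-fold. In the authors' deposited DESeq2 results the log2 fold changes were 1.70 for CRF6 and 0.94 for CRF5.

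RAP2.4 (AT1G78080), an AP2/ERF gene of the DREB subfamily, differed most between genotypes at the start among these 12 genes. It had 626, 568, 574 and 498 RPM in vcs and 47.1, 41.6, 49.8 and 49.4 RPM in WT at 0 min. Its early slopes were alike, at -1.48 ± 0.21 in vcs and -1.76 ± 0.24 in WT over 0 to 30 min. Later it had -1.42 ± 0.15 in vcs and -0.21 ± 0.02 in WT, so that 13.2% ± 2.11 remained in vcs at 120 min and 43.0% ± 3.41 in WT. The half-lives over the whole course were 40.4 min in vcs and 105 min in WT, but the WT course was not a single exponential.

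The remaining genes of this set behaved in several ways. PROT2 (AT3G55740), a proline transporter gene, did not decline in WT, with 101% ± 8.61 left at 120 min, against 45.4% ± 8.18 in vcs. LBD38 (AT3G49940), which represses nitrate-responsive genes, had half-lives of 49.1 min in vcs and 88.5 min in WT. GAI (AT1G14920), a DELLA repressor of gibberellin responses, had half-lives of 45.8 min in vcs and 73.8 min in WT, and SULTR1;2 (AT1G78000), a root sulphate transporter gene, had 61.5 min in vcs and 132 min in WT. MIZ1, a gene for root hydrotropism, and CW9, annotated as a disease resistance gene, had differences of -0.55 and -0.59. EDF3, a RAV-type factor gene, had a difference of -0.54, with WT slopes spread from -0.67 to 0.02, and its call was lost without vcs replicate 1 (limma adjusted p = 0.0551), vcs replicate 4 (0.0633) or WT replicate 4 (0.0631).

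**Figure D4:**
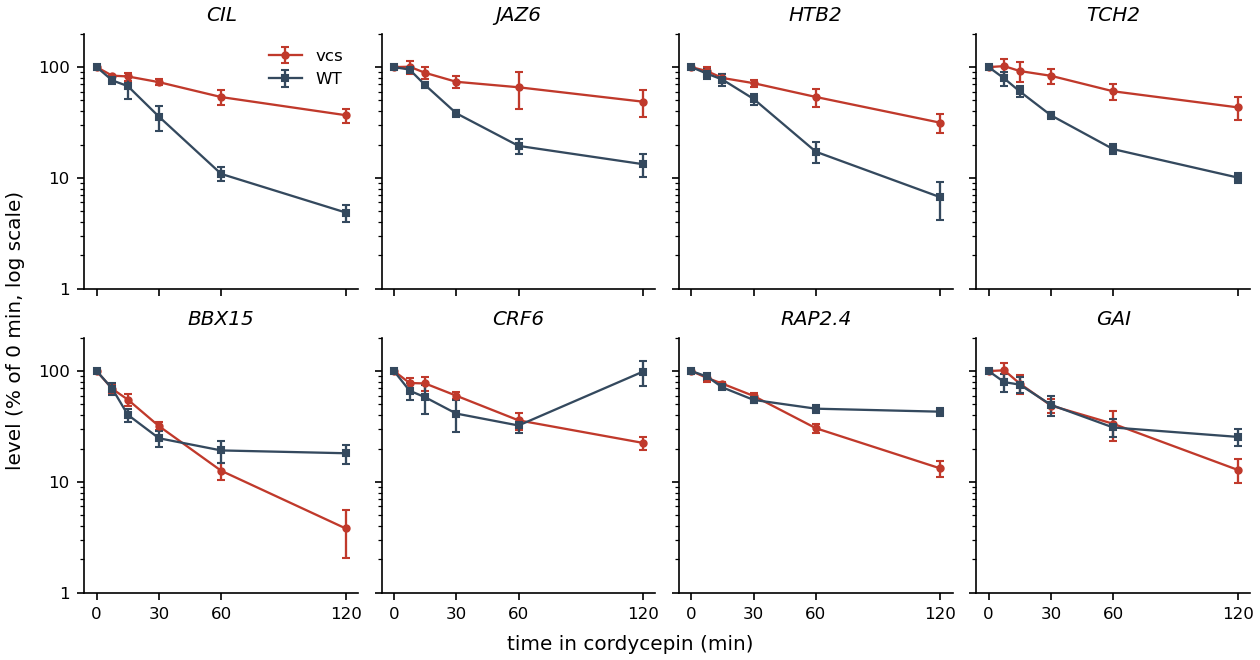
Level as a percent of 0 min on a log axis against time in cordycepin in min, for vcs and WT, as the mean of 4 courses with SD bars. In the upper row (CIL, JAZ6, HTB2, TCH2) the vcs curve stays above the WT curve from 30 min on; in the lower row (BBX15, CRF6, RAP2.4, GAI) the WT curve levels off or rises after 60 min while the vcs curve goes on falling.

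This late flattening was common among the faster genes. Over 30 to 120 min their median slope was -0.63 ± 0.07 in vcs and -0.27 ± 0.05 in WT, against -0.93 ± 0.18 in vcs and -0.79 ± 0.09 in WT over 0 to 30 min (SD, n = 4). The mean level was higher at 120 min than at 60 min for 12 of the 905 faster genes (1.33%) in vcs and for 183 (20.2%) in WT. Among all tested genes these shares were 2.41% in vcs and 4.22% in WT. With slopes over 0 to 60 min only, 2344 genes were slower and 162 faster. The values describe genes called on the same courses, and whether new synthesis in WT took part was not tested. For the 3123 slower genes the median level at 120 min was 52.0% of the start in vcs and 36.5% in WT, and the median difference was of like size over 0 to 30 min (0.21) and over 30 to 120 min (0.23).

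The gene lists below were chosen with earlier results of these data in view, so their counts are descriptions. Each is read against the 19.8% slower and 5.74% faster among all tested genes and a median difference of 0.05 log2 units per h. Scaling to reference genes chosen in sov raised that median to 0.11 and centring lowered it to -0.0069, and counts of small differences moved with it.

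**Figure D5:**
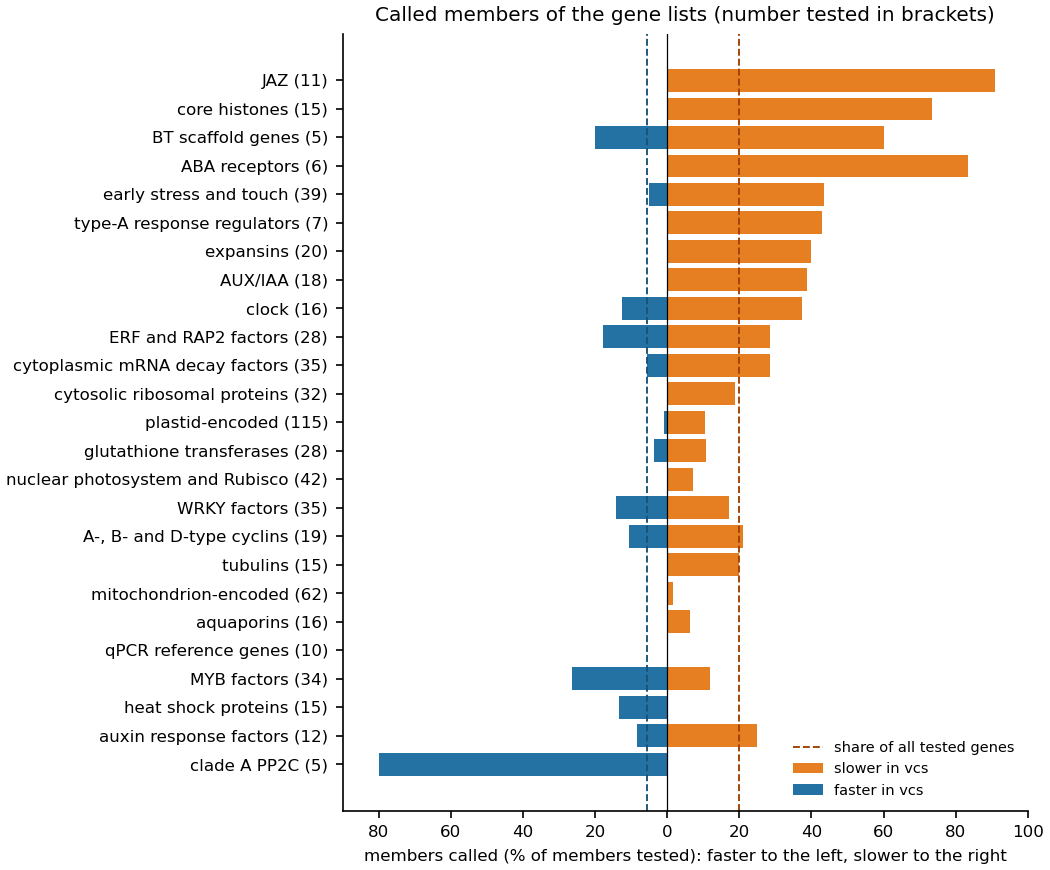
Members called slower (to the right) and faster (to the left) in vcs as a percent of the members tested, for lists with at least 5 tested members, ordered by their median slope difference. Dashed lines mark the shares among all tested genes, 19.8% slower and 5.74% faster; the JAZ, ABA receptor and core histone lists reach furthest to the right and clade A PP2C to the left.

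JAZ proteins repress jasmonate-responsive transcription and are themselves induced by jasmonate. Of 12 JAZ genes 11 were tested, 10 were slower and none faster, with a median difference of 0.69 and half-lives from the median slope of 102 min in vcs and 43.9 min in WT. JAZ6 (AT1G72450) started at 80.1 ± 31.4 RPM in vcs and 77.9 ± 4.03 RPM in WT (SD, n = 4), on RPM that include the plastid reads. In the authors' deposited table of DESeq2 results it was lower in vcs, with a log2 fold change of -0.52 (adjusted p = 0.0039). Its slopes were -0.70, -0.28, -0.49 and -0.71 in the vcs courses and -1.29, -1.69, -1.48 and -1.60 in the WT courses, a difference of 0.97 (SE 0.12, limma adjusted p = 5.96e-04). At 60 min 65.8% ± 24.2 of JAZ6 remained in vcs and 19.5% ± 2.87 in WT.

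JAZ8 (AT1G30135) and JAZ7 (AT2G34600) moved further but less evenly. JAZ8 had slopes of -0.999, -0.13, -0.76 and -0.92 in the vcs courses and -2.12, -2.03, -1.75 and -1.67 in the WT courses. It started at 3.24 to 34.5 RPM in vcs and 6.18 to 23.4 RPM in WT, and by 120 min had reached 0.104 to 0.567 RPM in WT, close to the floor, so the pseudocount of 0.5 RPM flattens its WT slope. Its difference was 1.86 with a pseudocount of 0.1 RPM in place of 1.19. JAZ10, JAZ5, JAZ1, JAZ2 and JAZ9 had differences of 0.79, 0.70, 0.69, 0.61 and 0.52. The longer-lived JAZ3 and JAZ12 moved by 0.24 and 0.18, and JAZ11, at 0.10, did not pass.

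AUX/IAA genes, whose proteins repress auxin responses, gave 7 slower and no faster of 18 tested among 24, with a median difference of 0.12. IAA2 had half-lives of 55.1 min in vcs and 35.1 min in WT, and IAA18 had 109 min in vcs and 58.7 min in WT. IAA17, with a difference of 0.00, and the long-lived IAA8 and IAA27 did not pass. Type-A response regulators, which feed back on cytokinin signalling, gave 3 slower and no faster of 7 tested among 10. ARR4 (AT1G10470) was the largest, at -0.89 ± 0.02 in vcs and -1.51 ± 0.09 in WT (SD, n = 4). ARR9 and ARR7 had differences of 0.46 and 0.37, and ARR5, ARR6, ARR8 and ARR16 did not pass. Of the auxin response factors, transcription factors that AUX/IAA proteins bind, 3 were slower and 1 was faster of 12 tested among 20, with a median of -0.12. ARF18, ARF11 and ARF2 were slower and ARF6 was faster.

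Over 0 to 120 min, genes of abscisic acid receptors and of their partner phosphatases differed in direction. Over 0 to 30 min both lists had a positive median difference, 1.18 for the receptors and 0.23 for the phosphatases. Over 30 to 120 min these medians were 0.01 and -0.49. PYR/PYL proteins bind the hormone and then inhibit the clade A protein phosphatases 2C. Of 6 receptor genes tested among 12, 5 were slower and none faster, with a median difference of 0.39. On unscaled RPM, with the next-ranked set of reference genes and when centred, 3 of the 6 were slower. PYL5 (AT5G05440) stood at 82.3 ± 12.3 RPM in vcs and 41.3 ± 5.50 RPM in WT at 0 min. Its slope was -0.85 ± 0.01 in vcs and -1.63 ± 0.14 in WT, with half-lives of 70.8 min in vcs and 36.8 min in WT. PYL1, PYL6, PYL4 and PYR1 had differences of 0.76, 0.46, 0.32 and 0.16, and PYL7, at 0.17, did not pass.

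Over the whole course the phosphatases went the other way. Of 5 tested among 9, none was slower and 4 were faster, with a median of -0.32. With reference genes chosen in sov, 1 was slower and 3 were faster. PP2CA (AT3G11410) had slopes of -1.31 ± 0.08 in vcs and -0.88 ± 0.16 in WT. ABI1 had half-lives over the whole course of 138 min in vcs and 536 min in WT. In WT its slope was -0.84 ± 0.61 over 0 to 30 min and 0.16 ± 0.10 over 30 to 120 min. In vcs it was -0.61 ± 0.37 and -0.33 ± 0.09 in the same windows (SD, n = 4). The WT half-life is thus not that of a steady decline. ABI2 and HAB2 had differences of -0.34 and -0.20. HAB1, at 0.16, did not pass. The time courses of PP2CA show the same late divergence as above. Over 0 to 30 min the slope was -1.72 ± 0.27 in vcs and -3.98 ± 0.38 in WT, while over 30 to 120 min it was -1.09 ± 0.16 in vcs and 0.11 ± 0.22 in WT (SD, n = 4). Over 0 to 60 min alone PP2CA was therefore slower in vcs, with a difference of 0.57 (limma adjusted p = 3.32e-04), so its direction depends on the window. The edgeR test on recovered reads gave -0.29 over the whole course and did not call it (adjusted p = 0.343).

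Core histone genes, expressed mainly in dividing cells, were among the most uniform lists. Of 15 tested among 17, 11 were slower and none faster, and all 15 differences were positive, with a median of 0.57 and half-lives from the median slope of 111 min in vcs and 51.8 min in WT. HTB2 (AT5G22880), an H2B gene, had a slope of -0.80 ± 0.16 in vcs and -1.77 ± 0.23 in WT (SD, n = 4), and the WT courses at -1.64, -1.67, -2.11 and -1.64 all lay below the vcs courses. At 120 min 31.5% of HTB2 remained in vcs and 6.69% in WT. The other H2B genes HTB9, HTB11, HTB1 and HTB4 had differences of 0.86, 0.82, 0.81 and 0.64. Among H2A genes, HTA10, HTA13, HTA2, HTA6 and HTA7 moved by 0.75, 0.61, 0.57, 0.49 and 0.34.

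The histone genes that did not pass were HTA9, HTA8, HTA12 and the centromeric H3 gene HTR12, with WT half-lives of 144 to 269 min, longer than those of most called members. Unlike the differences in the 2 short-lived half-life classes, the histone median difference was not larger early. It was 0.45 over 0 to 30 min and 0.57 over 30 to 120 min. The median over all slower genes was not larger early either (0.21 and 0.23). Histone transcripts share long stretches of sequence, so reads could have been split among copies. Summed levels of the 4 markers of the shoot meristem stood at 9.07 to 11.5 RPM in vcs and 5.02 to 7.47 RPM in WT at 0 min. Those of the 4 root tip markers stood at 1.97 to 2.97 RPM in vcs and 0.837 to 1.53 RPM in WT. These RPM include the plastid reads. Single markers did not move together: WOX5 was higher in vcs, whereas PLT1 stood at 0.623 RPM in vcs and 0.595 RPM in WT, and CUC2 at 0.154 RPM in vcs and 0.389 RPM in WT, several of these values being near the floor of 3 reads. Their part in the result was not tested. Cyclins of types A, B and D gave 4 slower and 2 faster of 19 tested among 28, with a median of 0.04 that turned negative when slopes were centred on the median nuclear gene. CYCD3;2 was slower (0.43), and the mitotic CYCB2;2 and CYCB2;3 were faster (-0.31 and -0.29), but over 0 to 60 min their differences were 0.033 and 0.074, of the other sign.

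Early stress and touch genes respond within minutes to handling. Of 39 tested among 40, 17 were slower and 2 faster, with a median difference of 0.26. TCH2 (AT5G37770), a calmodulin-like gene, had 81.5 ± 31.3 RPM in vcs and 71.2 ± 9.83 RPM in WT at 0 min. Its slopes were -0.77, -0.59, -0.55 and -0.68 in the vcs courses and -1.49, -1.66, -1.67 and -1.61 in the WT courses, a difference of 0.96 (SE 0.06, limma adjusted p = 4.02e-09). At 30 min 83.5% of TCH2 remained in vcs and 36.7% in WT. CML38, WRKY18, SZF1 and TCH4 had differences of 0.90, 0.85, 0.64 and 0.53. ZAT6 and SZF2 were the faster genes, at -0.26 and -0.13.

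For this list the phase mattered. The median difference was 1.87 over 0 to 30 min and -0.24 over 30 to 120 min, so that by the median these transcripts fell more slowly in vcs at first and faster than in WT later. Medians were also positive first and negative later for the type-A response regulators (1.27 and then -0.12), the BT genes (2.13 and -0.31), the ERF and RAP2 genes (0.93 and -0.28), WRKY genes (0.72 and -0.21), MYB genes (0.54 and -0.30) and clade A PP2C (0.23 and -0.49), while the ABA receptors had 1.18 and then 0.01. Among all genes not called, the median difference was -0.04 over 0 to 30 min and 0.02 over 30 to 120 min. BT genes encode BTB and TAZ domain scaffolds that bind calmodulin. Of the 5, BT1, BT2 and BT4 were slower, BT3 was faster (-0.24) and BT5 did not pass (0.01). BT1 (AT5G63160) fell to 13.9% ± 3.84 of the start at 120 min in vcs and to 3.08% ± 1.09 in WT.

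Expansins loosen the cell wall. Of 20 tested among 35, 8 were slower and none faster, with a median of 0.17. EXPA1 (AT1G69530) had half-lives of 71.6 min in vcs and 32.8 min in WT, EXLA1 had 72.8 min in vcs and 35.3 min in WT, and EXLA2 had 80.5 min in vcs and 41.3 min in WT. EXPA4 and EXPA15, with differences of 0.00 and -0.03, did not pass.

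Clock genes were mixed. Of 16 tested among 20, 6 were slower and 2 faster, with a median of 0.12. Besides TCP11, the slower genes were the morning genes CCA1, RVE4 (also called LCL1), RVE1 and RVE8, and ELF3 of the evening complex. CCA1 (AT2G46830) had 12.8, 9.87, 10.8 and 7.41 RPM in vcs and 59.5, 60.3, 63.2 and 75.2 RPM in WT at 0 min, and hardly declined in vcs, with 81.6% ± 7.97 left at 120 min against 40.9% ± 2.15 in WT. Its difference was 0.55 (SE 0.05, limma adjusted p = 1.04e-06). GI and RVE2 were faster, at -0.18 and -0.46. For RVE2 the sign turned over 0 to 60 min (0.37, limma adjusted p = 0.0493), and with edgeR on recovered reads it was not called (adjusted p = 0.0737).

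Transcription factor families moved in both directions. WRKY genes gave 6 slower and 5 faster of 35 tested among 67, and their median of 0.05 turned negative under centring. ERF and RAP2 genes gave 8 slower and 5 faster of 28 tested among 52, the faster ones including the CRF6, CRF5 and RAP2.4 described above. MYB genes gave 4 slower and 9 faster of 34 tested among 115, with a median of -0.06 that became positive on nuclear RPM. MYB95 was slower, at 0.68, and MYB34 and MYB4 were faster, at -0.48 and -0.42. MYB34, an activator of indole glucosinolate synthesis, had half-lives of 25.2 min in vcs and 31.5 min in WT.

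Of 35 genes of the decay machinery, 10 were slower (28.6%) and 2 faster (5.71%), with a median of 0.09, near the shares and median of all genes. Scaling to genes chosen in sov gave 16 slower and 1 faster, and centring 7 slower and 6 faster. The faster genes were VCS and the PAT1 relative PAT1H2. Among the slower ones, the decapping activators LSM1A, PAT1 (AT1G79090), PAT1H1 and LSM1B, the decapping subunit DCP1 and the DHH1-like helicase RH6 had differences of 0.41, 0.34, 0.26, 0.24, 0.32 and 0.24 in this order. PAT1 had 101 RPM in vcs and 41.3 RPM in WT at 0 min, with half-lives of 170 min in vcs and 86.6 min in WT. DCP1 had 34.0 RPM in vcs and 15.1 RPM in WT, with half-lives of 185 min in vcs and 92.5 min in WT. The exosome subunit CSL4, the SKI complex subunit SKI8 and the deadenylase CCR4A were also slower. DCP2 (AT5G13570), the decapping enzyme, had slopes of -0.74 ± 0.11 in vcs and -0.80 ± 0.06 in WT, a difference of 0.06 (SE 0.07) that did not pass (limma adjusted p = 0.558), and the 5' exonuclease XRN4 and the helicases UPF1 and RH8 did not pass either.

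Lists of long-lived housekeeping transcripts held few calls. Cytosolic ribosomal protein genes gave 6 slower and none faster of 32, and all 32 differences were positive, with a median of 0.08 and half-lives from the median slope of 344 min in vcs and 235 min in WT. The number slower was 15 with reference genes chosen in sov and 1 when centred, where the median was 0.0088. Nuclear photosystem and Rubisco genes gave 3 slower of 42, tubulins 3 of 15, aquaporins 1 of 16 and glutathione transferases 3 slower and 1 faster of 28. With reference genes chosen in sov, 14 photosystem, 7 tubulin and 9 glutathione transferase genes were slower. The medians of the photosystem and tubulin lists (0.05 and 0.04) turned negative under centring. That of the aquaporins (0.01) did so under every other scaling examined for the lists except that to genes chosen in sov. Scaling to the nuclear reference genes alone was not examined for the lists. None of 10 reference genes common in qPCR was called in either direction, and their median of 0.01 changed sign under the same scalings as that of the aquaporins. A missed threshold does not show equal decay.

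Heat shock protein genes gave no slower and 2 faster of 15 tested among 25, with a median of -0.09, but 3 members, HSP70, HSP60-2 and HSP60-3A, are themselves among the 50 reference genes. HSP70 (AT3G12580) had slopes of -0.09 ± 0.14 in vcs and 0.25 ± 0.17 in WT, so it rose in WT. Of the 50 reference genes 1 was called slower and 3 faster. Plastid-encoded transcripts gave 12 slower and 1 faster of 115 tested among 133, but 51 slower and 1 faster with reference genes chosen in sov and 5 slower and 5 faster when centred. The mitochondrial ones gave 1 slower of 62 tested among 146, of which 6 are reference genes. The mitochondrial median of 0.02 turned negative under every other scaling examined for this list except that to genes chosen in sov. Only 1 of 15 SAUR genes passed the filter on level, and its difference of -0.15 did not pass the test.

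Slower genes had fewer introns than uncalled ones. Gene structures were taken from the TAIR10.1 annotation by gene identifier for nuclear genes. The median number of introns was 3 in slower, 3 in faster and 5 in uncalled genes, and 16.4%, 21.4% and 9.60% of them had no intron. The median transcript length was 1589, 2094 and 1800 bases in the same order. The share of slower genes fell with intron number, from 28.3% of the 1799 intronless genes to 9.48% of the 2996 genes with 10 or more introns. Intronless genes also declined faster in WT, at a median of -0.59 against -0.40 with 10 or more introns. Within the sov half-life class of 30 to 60 min, 60.9% of the intronless and 57.5% of the intron-containing genes were slower, and in the class of 60 to 120 min 31.8% and 28.5% were. Faster calls kept a gap within the classes, for example 19.9% of intronless and 7.52% of intron-containing genes among those of over 240 min.

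The change in slope was only weakly related to the change in starting level. To keep the 0 min library out of both measures, slopes over 7.5 to 120 min were set against the log2 ratio of RPM at 0 min, vcs over WT. Across 15601 nuclear genes Pearson's r was -0.145 and Spearman's rho -0.085, a description across genes that share libraries. The median log2 ratio at 0 min was 0.49 in slower, 0.73 in faster and 0.46 in uncalled nuclear genes, on RPM that include the plastid reads. In the authors' deposited table of DESeq2 results, 716 of the 3123 slower genes were higher in vcs (22.9%) and 846 lower (27.1%), near the 20.1% higher and 28.6% lower among uncalled genes. Of the 905 faster genes 390 were higher in vcs (43.1%) and 118 lower.

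The authors' deposited table also gives group means of scaled and normalized levels. Slopes from those means had a median of -0.35 in vcs and -0.40 in WT. The slope difference from the authors' deposited table had the same sign as here for 3119 of the 3123 slower genes, 904 of the 905 faster genes and all 24 genes of largest change. These means come from the same libraries and are no independent measurement.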

How the data were processed

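RNA-seq was done on ribosomal RNA-depleted, stranded libraries of pooled whole seedlings, per the labels' protocols. Reads were mapped and counted with Bowtie2 2.2.3, TopHat2 2.0.12, SAMtools and HTSeq 0.6.1 on TAIR10, per the submitters' processing notes; the strand setting and annotation of the counting are not given in the sources used here. The authors deposited RPM values per library, scaled to the total over nuclear and organelle genes. A second table deposited by the authors holds group means as a ratio to 0 min, and log2 fold changes with adjusted p-values from DESeq2, per the file headers.

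Whole reads were recovered from the RPM values, with 100% of values within 0.001 of a whole read, and gave the depths of 11.5 to 34.3 M reads. Each library was scaled to the 50 genes (44 nuclear, 6 mitochondrial, ribosomal RNA genes left out) of at least 10 RPM with the least decline, relative to 0 min of its course. Per gene and course, log2(RPM + 0.5) was regressed on time by least squares. The slopes were compared with limma 3.58.1 (R 4.3.3; variance trend on the 0 min level, robust), 4 courses against 4, over 15778 genes of at least 2 RPM at 0 min in both genotypes, with Benjamini-Hochberg adjustment over all of them. The pseudocount flattens the slopes of genes that reach low levels. Phase slopes cover 0 to 30 and 30 to 120 min. The test was run on simulated reads with known slope differences, with less spread between courses than many genes had and without scaling to reference genes. That setting is easier than the data, so it does not measure the error rate here. Alternatives included edgeR 4.0.16 (quasi-likelihood test) on the recovered reads, other scalings, filters, pseudocounts, time windows and omitted replicates.

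Named genes are the 12 of largest difference in each direction among called genes that have a symbol and start at 5 RPM or more, plus VCS, SOV, VCR, DCP2 and up to 4 called members per list; further list members were named after their values were seen. Groups and lists were chosen with earlier results of these data known. From the lists, 31 genes whose symbol belongs to another family were left out, and the phase slopes were added, after values had been seen. Names came from the TAIR10.1 annotation by gene identifier (28009 of 28775 matched); no coordinates were used. Reads of close copies, such as histone, tubulin and VCS/VCR genes, may have been split between them, and overlapping or antisense genes may share reads. One member of the decay factor list is not reported here.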

Additional observations from a re-analysis of the deposited data

Results flagged for a closer look

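For 4 of the 60 sets of 4 slopes examined (1 gene in 1 genotype each), 1 course lay far from the other 3, by a gap above the 95% critical value of Dixon's test for 4 values, taken as a share of the whole range. Chance alone does so in about 1 of 20 such sets. All 4 are WT sets. For HTB2 in WT the gap was 0.926 of the range, with replicate 3 at -2.11 against -1.64 to -1.67 log2 units per h in the others. For RAP2.4 in WT it was 0.926, with replicate 1 at -0.47 against -0.60 to -0.61. For HYR1 in WT it was 0.864, with replicate 4 at -1.50 against -1.75 to -1.78. For LAC7 in WT it was 0.840, with replicate 1 at -0.67 against -0.35 to -0.40. Each of these courses still lay on the WT side of all 4 vcs courses.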

How the results depend on the processing

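Against 3123 slower and 905 faster genes, requiring 10 RPM left 1960 slower and 300 faster of 8395 genes tested, and dropping the filter gave 1743 faster genes of 23333. Reference genes chosen in sov gave 5181 slower and 600 faster, centring on the median nuclear gene 1872 faster, scaling to mitochondrial reads 1838 slower, slopes over 0 to 60 min 162 faster, and slopes over 0 to 240 min 6533 slower and 1513 faster; the cause was not tested. With edgeR on recovered reads 4444 genes were slower and 947 faster. Leaving out 1 replicate at a time gave 2440 to 3189 slower and 663 to 1006 faster genes, and median differences of 0.04 to 0.07. The median difference of 0.06 (exact p = 0.0571) reached the smallest possible exact permutation p of 0.0286 with reference genes chosen in sov (0.11), over 0 to 240 min (0.063) and, in an alternative added after seeing the data, with nuclear reference genes only (0.060); centred on the median nuclear gene it was -0.00094. In the class of over 240 min the difference was -0.026 on unscaled RPM.

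Same-numbered vcs and WT courses correlated at -0.07, -0.09, 0.15 and 0.23 in their deviations from the group means. Courses of unlike numbers correlated at -0.23 to 0.18. With 4 courses per genotype these values cannot show whether the numbers pair the samples, and the main fit did not pair them. With a replicate block 3494 genes were slower and 1033 faster. Of 2696 pairs of a named gene and an alternative, 2489 kept direction and side of the threshold, 186 lost the call, 6 gained one and 15 changed sign. Over 0 to 60 min the sign turned for CRF5 (0.24), SOV (0.19), SAUR36 (0.10), RVE2 (0.37), CYCB2;2 (0.033), CYCB2;3 (0.074), PP2CA (0.57) and EF1A (0.0011). EF1A also turned with reference genes chosen in sov (0.041), over 0 to 240 min (0.054), and without single replicates (-0.045 to 0.014). SAUR36 turned with a pseudocount of 0.1 RPM (0.0052) and with edgeR (0.034), and ATCG00410 over 0 to 240 min (0.18). Among the 24 genes of largest change, 629 of 641 pairs were unaffected; besides CRF5, calls were lost over 0 to 60 min for CRF6, CW9, MIZ1, LBD38, EDF3, SULTR1;2 and GAI, and for EDF3 also with the replicate block (adjusted p = 0.0924) and without 3 single replicates. At these depths 3 reads equal at most 0.261 RPM, so slopes of genes that end near that level are bounded by the pseudocount.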
